A study of Homo sapiens with 4 samples.

Results

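Kinesins are the motor proteins that walk along, or take apart, microtubules. Transcript levels of this gene family were examined in KM-H2, an established Hodgkin lymphoma cell line that carries a fusion of CIITA with the transcript BX648577. The members were the genes whose symbol in the array annotation is KIF, a number and at most 1 letter, without KIF23 and without antisense genes. A total of 37 of the 19775 named genes met this rule, and each was represented by its brightest probe set. By textbook role 11 were taken as mitotic kinesins, 13 as transport kinesins and 13 as others.

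The data were 4 single-colour arrays. In 2 of them the cells had been given, by lentivirus, the hairpin vector pGIPZ-sh.FLJ27352, clone V2LHS_212659, whose processed siRNA is directed at BX648577 exon 2 within CIITA-BX648577 (called knockdown below). The other 2 held KM-H2 cells with a non-silencing control (called control). A single hairpin clone was used, and all 4 arrays come from 1 cell line. The labels do not say whether the replicates were separate cultures, so p-values measure only the spread between these arrays, which may be technical. The number of arrays limits the precision of every value below.

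In background terms, kinesins share a conserved motor domain, which burns ATP in most of them. Mitotic kinesins build the spindle, move and align chromosomes and drive cytokinesis, and their genes are transcribed mostly late in the cell cycle. CHR and CCAAT promoter elements are known in such genes, the CHR for repression early in the cycle and activation later. Transport kinesins carry vesicles, endosomes, mitochondria and ciliary cargo and are used outside mitosis as well, with several of them best known from neurons. Other members shorten microtubules, limit their growth or work in cilia.

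Promoter sequence is a feature that the choice of members did not use, and it is described here by counts without a test. RefSeq windows (GRCh38.p14) covering the 250 bases before a transcript start were found for 31 of the 37 members by symbol. KIF5A, KIF13B, KIF19, KIF21B, KIF26B and KIF27 had none in the table. A CHR-type motif, searched as TTTGAA or TTCGAA on both strands, occurred in windows of 5 of 11 mitotic kinesins (45.5%), 1 of 11 transport kinesins (9.09%), 0 of 9 other kinesins and 17.2% of all 27305 genes with a window. CCAAT, searched on both strands, occurred in windows of 8 of 11 mitotic kinesins (72.7%), 4 of 11 transport kinesins (36.4%), 3 of 9 others (33.3%) and 37.0% of all genes. Both motifs together were found for KIF11, KIF18A, KIF4A and KIF22 among the mitotic kinesins and for KIF5B among the transport kinesins, against 6.24% of all genes. Genes with several start sites were counted once if any window matched. A match is a string of letters and not a shown binding site, and these motifs were chosen with the expression values already seen.

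Of the windows printed next, those of KIF11, KIF18A and KIF4A are shown as 3 of the 5 that hold both motifs, that of KIF2C because it holds neither although KIF2C had the highest mitotic fold change, and that of KIF16B because it had the lowest transport fold change. Each runs 5′ to 3′ on the gene's own strand and ends at the base before the transcript start. Capitals mark every match on either strand (TTCAAA and ATTGG are the reverse complements of TTTGAA and CCAAT). No match of one motif shares a base with a match of the other.
KIF11 (GRCh38.p14, chr10:92592880-92593129, plus strand): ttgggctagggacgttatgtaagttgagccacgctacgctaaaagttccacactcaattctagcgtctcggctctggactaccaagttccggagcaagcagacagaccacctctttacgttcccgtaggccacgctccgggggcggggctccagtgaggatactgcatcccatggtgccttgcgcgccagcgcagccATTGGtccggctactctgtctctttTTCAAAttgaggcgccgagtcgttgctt
KIF18A (GRCh38.p14, chr11:28108157-28108406, minus strand): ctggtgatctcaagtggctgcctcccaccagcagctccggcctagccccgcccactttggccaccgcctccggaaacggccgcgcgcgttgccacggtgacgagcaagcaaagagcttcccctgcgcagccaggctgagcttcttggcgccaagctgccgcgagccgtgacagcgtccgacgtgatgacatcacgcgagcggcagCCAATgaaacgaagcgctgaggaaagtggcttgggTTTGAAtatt
KIF4A (GRCh38.p14, chrX:70289854-70290103, plus strand): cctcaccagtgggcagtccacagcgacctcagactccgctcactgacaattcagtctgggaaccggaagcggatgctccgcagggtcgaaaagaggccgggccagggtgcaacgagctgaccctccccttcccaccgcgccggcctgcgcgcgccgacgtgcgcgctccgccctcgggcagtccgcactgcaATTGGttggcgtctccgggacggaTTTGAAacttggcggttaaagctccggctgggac
KIF2C (GRCh38.p14, chr1:44739587-44739836, plus strand): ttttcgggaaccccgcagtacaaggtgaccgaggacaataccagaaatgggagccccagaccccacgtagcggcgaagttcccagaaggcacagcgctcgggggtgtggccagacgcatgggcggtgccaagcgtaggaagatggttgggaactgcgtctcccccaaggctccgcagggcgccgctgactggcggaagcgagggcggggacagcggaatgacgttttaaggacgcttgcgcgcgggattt
KIF16B (GRCh38.p14, chr20:16573449-16573698, minus strand): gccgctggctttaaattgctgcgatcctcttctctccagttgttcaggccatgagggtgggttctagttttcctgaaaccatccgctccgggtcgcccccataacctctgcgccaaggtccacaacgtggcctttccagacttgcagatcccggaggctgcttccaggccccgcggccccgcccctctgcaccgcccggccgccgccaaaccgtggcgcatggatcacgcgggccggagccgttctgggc
In KIF11 the CHR-type match begins 28 bases before the transcript start and the CCAAT match 53 bases before it. The same order was seen in KIF18A, at 10 and 45 bases, in KIF4A, at 34 and 58 bases, and in KIF22, at 27 and 66 bases. In the transport kinesin KIF5B the order was the reverse, with the CHR-type match 140 bases and CCAAT 59 bases before the start. The median GC content of the windows was 63.6% for mitotic, 68.8% for transport and 65.8% for other kinesins, and 58.0% for all genes.

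Across the family the differences between knockdown and control were small, and none passed the test over all genes. A total of 30 members had a probe set above the filter on dim probe sets (a mean intensity over all 4 arrays of about 8.26), 10 of them mitotic, 12 transport and 8 others. The filter used both groups together. In limma with a single prior variance shared by the genes (the common-prior fit), 0 of the 30 had a Benjamini-Hochberg adjusted p below 0.05, where 0.0155% of the 12922 genes tested were called. When the prior variance was allowed to follow intensity (the intensity-trend fit), 0 of the 30 were called too, against 2.99% of all genes (1.59% higher and 1.4% lower). With p below 0.05 before adjustment in the common-prior fit stood 2 members that were higher in knockdown (KIF2C and KIF6) and 4 that were lower (KIF16B, KIF1C, KIF3A and KIF3C), where 6.41% of all genes were higher and 7.68% lower. Each fold change is the difference, knockdown minus control, of log2(intensity + 16), a scale that makes changes at dim probe sets look smaller, and intensities cannot be compared between genes. In RNA of whole cultures, fewer cells that use a gene and less RNA per cell cannot be told apart.

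**Figure D1:**
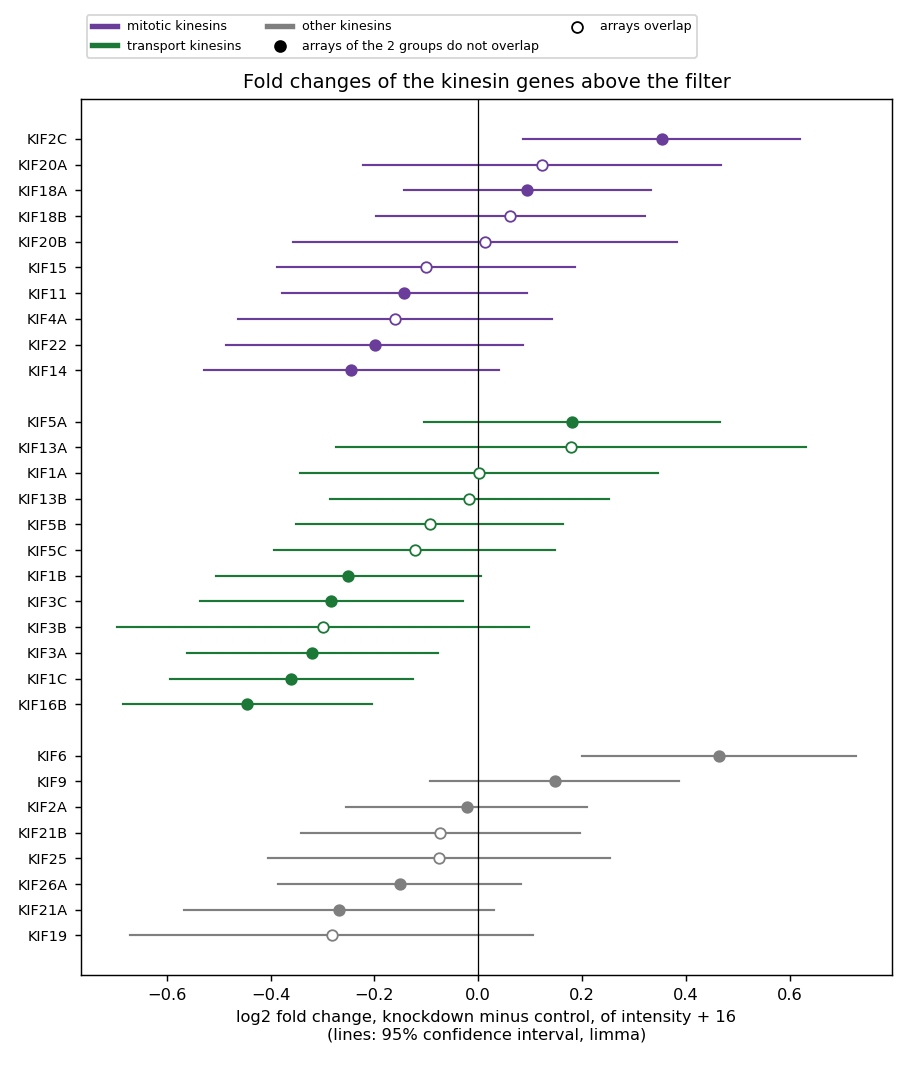
Log2 fold change of intensity + 16, knockdown minus control (horizontal axis), for the 30 kinesin genes above the filter, by class, with 95% confidence intervals from limma's common-prior fit. Filled points mark genes whose knockdown and control arrays do not overlap. The transport kinesins reach down to -0.44 (KIF16B) with 9 of 12 below 0, while the mitotic kinesins lie on both sides of 0 from -0.24 (KIF14) to 0.35 (KIF2C).

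Array-wide values bear on these results in a few places. The probe set of PIERCE2, the gene that general knowledge links to FLJ27352, had intensities of 621 and 590 in knockdown and 880 and 947 in control. Its log2 fold change was -0.58, with limma adjusted p-values of 0.252 (common prior) and 9.7e-05 (intensity trend). PIERCE2 too was thus not called by the common-prior fit, while the intensity-trend fit called it. Where the probe set lies in the fusion transcript was not analysed here. CIITA, the other partner of the fusion, had 60.7 and 53.6 in knockdown and 59.6 and 65.1 in control (log2 fold change -0.10, limma adjusted p of 0.702), with overlapping arrays. Array medians were 8.37 and 8.12 in knockdown and 9.17 and 9.28 in control, and centring the arrays on their medians moved the median fold change of all genes to 0.05, against -0.01 as deposited. All 7 Hodgkin cell markers lay above the filter, TNFRSF8 (CD30) among them. Of 5 T cell markers only CD3D did so, with means of 239 in knockdown and 188 in control. All 5 fibroblast markers were above the filter, and their summed intensity was 107 to 108 in knockdown and 140.0 to 154 in control. Of 5 neuron markers 3 passed, and all 5 summed to 57.4 to 58.3 in knockdown and 62.3 to 65.4 in control. No fibroblast or neuron marker stood at the floor of 1. Median fold changes were 0.04 for the Hodgkin, -0.24 for the fibroblast and -0.05 for the neuron markers above the filter, and by the intensity-trend fit FUT4 and CD3D rose while FSCN1 and COL1A2 fell. The fibroblast and neuron sums were lower in knockdown, but the 3 neuron markers above the filter had overlapping arrays. The Hodgkin sum was lower too, at 1408 to 1429 in knockdown and 1493 to 1512 in control. FSCN1 alone, with means of 504 in knockdown and 631 in control, dropped by more than the sum. Of the 7 Hodgkin markers, 5 had fold changes above 0, so the sum does not describe the list. The sum of the T cell markers was higher, at 248 to 287 in knockdown and 208 to 210 in control, and was mostly CD3D. The part of these lists in the results below was not tested.

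The mitotic kinesins did not move together. Of the 10 above the filter, 5 had a fold change above 0 and 5 below, and the median was -0.04, against -0.01 over all genes tested. That median changes sign to 0.01 under median centring and to 0.01 with no filter, so no direction is given for the class. Both knockdown arrays lay above both control arrays for 2 genes (KIF2C and KIF18A) and below them for 3 (KIF11, KIF14 and KIF22), where 22.7% of all genes were higher and 24.5% lower in this way.

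KIF2C, a depolymerase that removes faulty microtubule attachments at centromeres, had intensities of 98.2 and 94.9 in knockdown and 78.5 and 66.1 in control. The knockdown arrays agreed closely and both lay above the control arrays. Its log2 fold change was 0.35 (SE 0.11, 95% confidence interval 0.09 to 0.62), with limma adjusted p-values of 0.277 (common prior) and 0.0826 (intensity trend). A second probe set gave 46.0 and 48.1 in knockdown against 36.3 and 30.2 in control, a log2 fold change of 0.36. The probe sets thus gave nearly equal differences, short of the adjusted threshold.

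KIF11 and KIF20A stand for the family's best-known mitotic motors. KIF11, which slides spindle microtubules apart to separate the poles, read 157 and 151 in knockdown and 175 and 169 in control. The groups did not overlap, but the log2 fold change of -0.14 (SE 0.10) had an interval of -0.38 to 0.09 and a limma adjusted p of 0.549. KIF20A, which brings the chromosomal passenger complex to the central spindle in anaphase, read 253 and 201 in knockdown and 226 and 187 in control. Here replicate 1 exceeded replicate 2 in both groups, and the ranges overlapped. Its log2 fold change of 0.12 (SE 0.15) became -0.03 without knockdown replicate 1 and -0.0033 without control replicate 2.

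Among the other spindle motors, KIF15, which can keep poles apart beside KIF11, read 35.3 and 31.0 in knockdown and 32.6 and 41.0 in control (log2 fold change -0.10). KIF18A, which damps the swings of chromosomes as they align, read 49.7 and 49.5 in knockdown and 47.2 and 43.7 in control (0.09). KIF18B, which shortens astral microtubules, read 193 and 213 in knockdown and 185 and 203 in control (0.06). Of these 3 genes only KIF18A had separate groups, by a margin smaller than the gap between its control arrays.

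KIF22, KIF4A, KIF14 and KIF20B, motors of chromosome arms or of cytokinesis, had fold changes from -0.24 to 0.01, and none passed a fit. KIF22, which pushes chromosome arms away from the poles, read 57.3 and 47.4 in knockdown and 66.6 and 58.3 in control (-0.20, SE 0.12). A second KIF22 probe set went the other way, with 14.4 and 17.2 in knockdown and 14.0 and 13.5 in control (0.10), and the mean of both gave -0.05. KIF4A, which binds chromosomes and limits the length of central spindle microtubules, read 105 and 95.9 in knockdown and 127 and 102 in control (-0.16, SE 0.13). The groups overlapped for KIF4A and nearly met at the brighter KIF22 probe set. KIF14, needed to finish cytokinesis, read 189 and 169 in knockdown and 232 and 198 in control (-0.24, SE 0.12, limma adjusted p of 0.409). A second KIF14 probe set read 93.4 and 85.8 in knockdown and 109 and 95.9 in control (-0.16), so it differed the same way with adjoining ranges. KIF20B, another cytokinesis motor, read 55.2 and 59.5 in knockdown and 68.7 and 46.4 in control (0.01), and the control arrays spanned the knockdown arrays.

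Much of the spread of the mitotic kinesins lay between replicates. The class median of replicate 1 minus replicate 2 was 0.08 in knockdown and 0.18 in control, against 0.03 and 0.02 over all genes tested. Both gaps were larger in size than the class's median difference between the groups. For the transport kinesins the same gaps were 0.05 and 0.03.

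**Figure D2:**
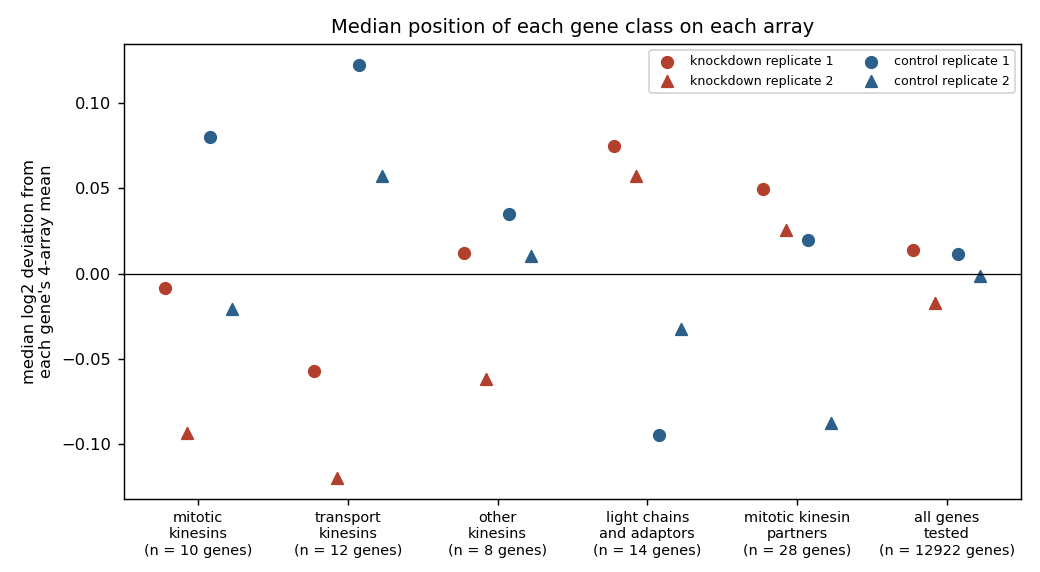
Median log2 deviation from each gene's mean over the 4 arrays (vertical axis), for each gene class (horizontal axis, with the number of genes above the filter) and each array (points). The transport kinesins lie at -0.06 and -0.12 on the knockdown arrays and 0.12 and 0.06 on the control arrays, while the mitotic kinesins lie at -0.01 and -0.09 on the knockdown arrays and 0.08 and -0.02 on the control arrays, so that their groups overlap.

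None of the transport kinesins passed either fit. Of the 12 above the filter 9 had a fold change below 0, where 52.5% of all genes did, and the class median was -0.19 (quartiles -0.30 and -0.01). Both knockdown arrays lay below both control arrays for 5 genes (KIF16B, KIF1C, KIF3A, KIF3C and KIF1B) and above them for 1 (KIF5A), where 24.5% of all genes were lower and 22.7% higher in this way, and the arrays of 6 genes overlapped. In each of the 4 pairings of a knockdown with a control array the class median was below 0, from -0.25 to -0.16. The pairings share arrays and are not independent. With the mean of all of a gene's probe sets, dim ones included, in place of the brightest, the class median was -0.08 over 11 genes. With a pseudocount of 64 the class median was -0.10.

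KIF16B, which moves early endosomes and holds them by a lipid-binding PX domain, had the lowest fold change. It read 24.97 and 27.2 in knockdown and 40.1 and 42.4 in control, means of 26.1 ± 1.55 and 41.2 ± 1.58 (SD, n = 2 each). Its log2 fold change was -0.44 (SE 0.10, interval -0.68 to -0.21), with limma adjusted p-values of 0.254 (common prior) and 0.0699 (intensity trend). The gap between the groups was several times the spread within either. The other probe set of KIF16B lay below the filter, with means of 6.52 in knockdown and 4.97 in control.

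KIF1C, a motor of Golgi and vesicle traffic, read 15.1 and 15.9 in knockdown and 24.98 and 23.95 in control (log2 fold change -0.36, SE 0.10, limma adjusted p of 0.256). Its replicates were close and the groups apart. A second KIF1C probe set above the filter read 10.98 and 11.1 in knockdown and 14.2 and 9 in control (-0.02), without such a gap. KIF1B, a carrier of mitochondria and synaptic vesicle precursors, read 42.0 and 49.1 in knockdown and 57.0 and 57.1 in control (-0.25, SE 0.11). Its 3 dimmer probe sets above the filter gave 0.01, -0.06 and -0.15. The last passed the filter through its control arrays, with means of 7.4 in knockdown and 9.62 in control. KIF1A, a vesicle motor of axons, read 29.9 and 30.1 in knockdown and 24.0 and 36.7 in control (0.00, SE 0.15), so the control arrays enclosed the knockdown arrays.

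The 3 motor subunits of heterotrimeric ciliary and vesicle kinesin had similar fold changes. KIF3A, the common subunit, read 42.9 and 39.1 in knockdown and 54.1 and 56.1 in control (log2 fold change -0.32, SE 0.10, limma adjusted p of 0.277). KIF3B, its usual partner, read 31.4 and 46.7 in knockdown and 58.3 and 44.6 in control (-0.30, SE 0.17). KIF3C, its alternative partner, read 14.0 and 16.5 in knockdown and 23.5 and 20.5 in control (-0.28, SE 0.11, limma adjusted p of 0.318). KIF3A and KIF3C had separate groups and KIF3B did not. Second probe sets gave -0.04 for KIF3A, -0.15 for KIF3B and -0.26 for KIF3C, so that of KIF3C matched its brighter one and that of KIF3A lay near 0. KIF17, a related homodimeric ciliary motor, lay below the filter, with 1.76 and 2.35 in knockdown and 4.22 and 6.11 in control.

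Conventional kinesin heavy chains differed little. KIF5B, the form found in most cells, read 511 and 452 in knockdown and 520.4 and 507 in control (-0.09, SE 0.11). Its other probe sets gave -0.01 and -0.03, and the groups overlapped at the brightest. KIF5C, mainly neuronal, read 34.9 and 28.8 in knockdown and 38.1 and 33.95 in control (-0.12), but a second probe set read 16.9 and 18.0 in knockdown and 9.15 on both control arrays (0.41). These 2 KIF5C probe sets pointed in opposite directions. KIF5A, the other neuronal form, read 21.7 and 15.6 in knockdown and 14.5 and 14.4 in control (0.18), and -0.22 at another probe set.

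The endosomal motors KIF13A and KIF13B were not separated by group at their brightest probe sets. KIF13A, which carries recycling endosomes, read 23.1 and 12.9 in knockdown and 18.4 and 9.67 in control (0.18, SE 0.19), with replicate 1 above replicate 2 in both groups. Its other probe sets above the filter were separated by group, in opposite directions. One had means of 10.18 in knockdown and 7.77 in control (0.14), the other 7.345 in knockdown and 10.37 in control (-0.18). Each passed the filter through its brighter group, so its sign is partly set by the filter. KIF13B read 35.3 and 28.4 in knockdown and 32.8 and 31.8 in control (-0.02, SE 0.11).

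**Figure D3:**
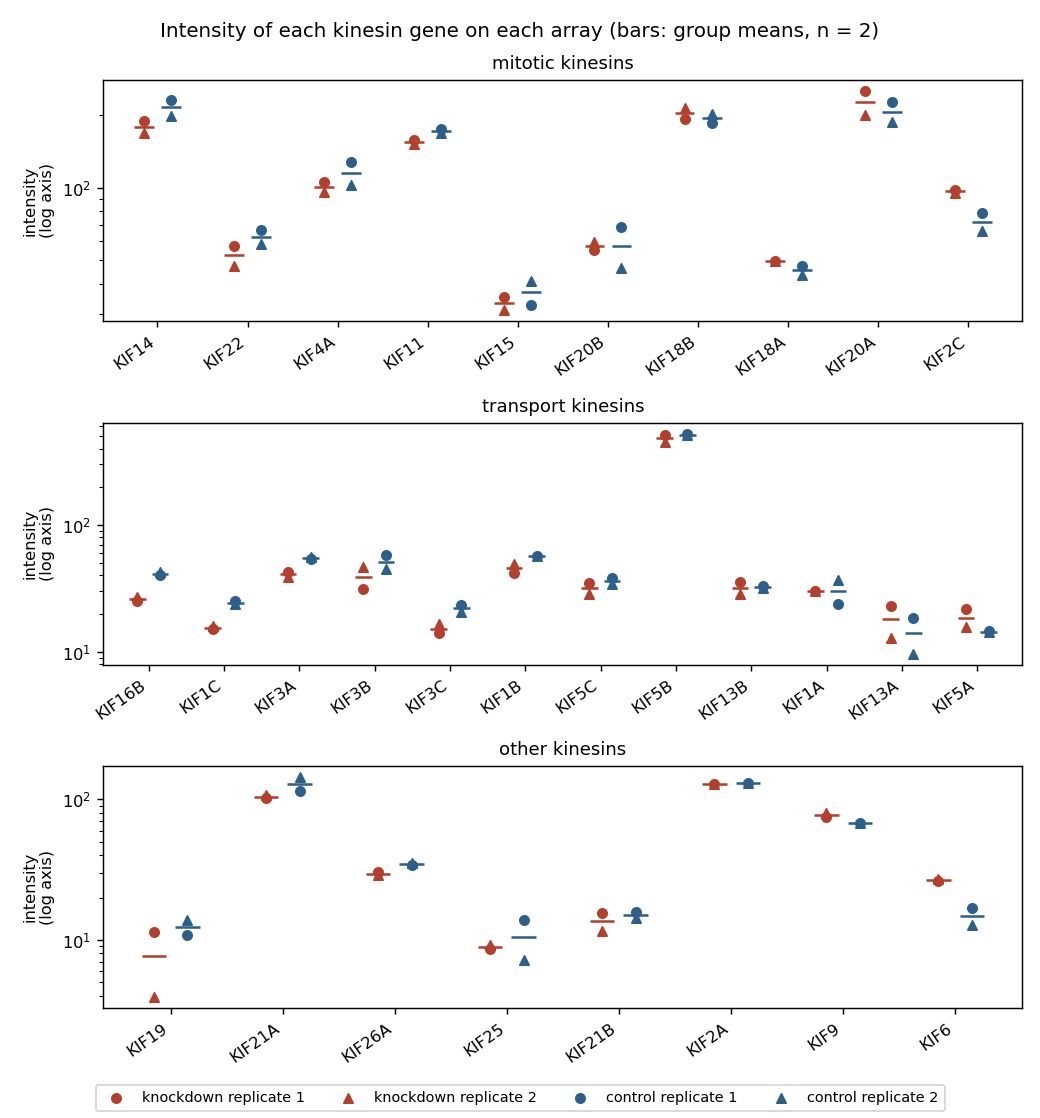
Intensity on each array (vertical log axis) of the 30 kinesin genes above the filter, by class, with genes ordered by fold change; short bars are group means of 2 arrays. KIF16B, KIF1C and KIF3A show both knockdown arrays well below both control arrays, KIF2C and KIF6 show them above, and heights of different genes are not comparable.

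Set beside each other, the mitotic median was -0.04 (quartiles of its genes -0.16 and 0.09) and the transport median -0.19 (quartiles -0.30 and -0.01). The median position of a class on an array had a replicate SD of 0.07 for the mitotic and 0.05 for the transport kinesins. With the mean of each gene's probe sets the medians were -0.08 and -0.08, so the gap between the classes was absent under that choice. That mean takes in probe sets below the filter, and it left 11 transport genes, without KIF13A. It is thus not the same comparison on the same genes. Before adjustment, the counts with p below 0.05 were 1 higher and 0 lower of 10 mitotic genes, and 0 higher and 4 lower of 12 transport genes, where 6.41% of all genes were higher and 7.68% lower. A test of the difference between the classes was not made, since both were chosen with values of these arrays known.

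Of the 8 other kinesins above the filter, 2 had a fold change above 0 and 6 below, with a median of -0.07. KIF6, linked to ependymal cilia in mouse and zebrafish, had the highest fold change of the family. It read 26.1 and 27.0 in knockdown and 17.0 and 12.8 in control (0.46, SE 0.11, interval 0.20 to 0.73), with limma adjusted p-values of 0.255 (common prior) and 0.103 (intensity trend). Its other probe sets above the filter had fold changes below 0. Their means were 10.1 in knockdown and 10.8 in control (-0.04) and 7.65 in knockdown and 13.3 in control (-0.31). The probe set at -0.31 passed the filter through its control arrays, so its sign is partly set by the filter. The KIF6 difference therefore rests on 1 of 3 probe sets above the filter.

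KIF21A, which limits microtubule growth at the cell cortex, read 102 and 107 in knockdown and 115 and 144 in control (-0.27, SE 0.13). The groups were apart, with a wide gap between the control arrays. KIF26A, which in mouse lacks motor activity, read 30.5 and 28.9 in knockdown and 34.4 and 35.03 in control (-0.15, SE 0.10). KIF9, a motor of sperm tails in mouse, read 74.6 and 80.6 in knockdown and 68.4 on both control arrays (0.15, SE 0.10), on a probe set with the suffix _x_at, which marks probes that may cross-hybridise. Its other probe sets above the filter, of the same type, gave 0.19 and -0.22.

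KIF2A, a depolymerase close to KIF2C, read 130 and 128 in knockdown and 131 and 132 in control (-0.02, SE 0.10) at its brightest probe set. A dimmer one read 48.3 and 49.9 in knockdown and 37.1 and 41.5 in control (0.24). KIF19, KIF21B and KIF25 overlapped between the groups, with fold changes of -0.28, -0.07 and -0.08, and KIF19 passed the filter through its control arrays, with means of 7.65 in knockdown and 12.4 in control. The 7 members below the filter were KIF2B, KIF7, KIF12, KIF17, KIF24, KIF26B and KIF27. Their intensities ran from 1.00 to 10.6 in knockdown and from 1.00 to 11.3 in control, near the floor of the deposited values. KIF2B, a spindle depolymerase, was the mitotic member among them, at 8.2 and 4.84 in knockdown and 1.00 and 4.45 in control.

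Probe sets of one gene often disagreed. Besides the brightest, 24 probe sets of 18 members lay above the filter, and 14 had the same sign of fold change as the brightest while 10 had the opposite sign. Some of the 24, at KIF13A, KIF1B and KIF6, had a mean under the filter's intensity in 1 group. They passed through the other group, so their signs and the tally are partly set by the filter. The widest disagreement in the mitotic class was at KIF20B, where a second probe set read 16.7 and 14.1 in knockdown and 23.3 and 33.0 in control (-0.48) and the brightest gave 0.01. That second probe set carries the _x_at suffix as well, and so does the brightest probe set of KIF25. Which isoforms the probe sets read was not analysed here.

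**Figure D4:**
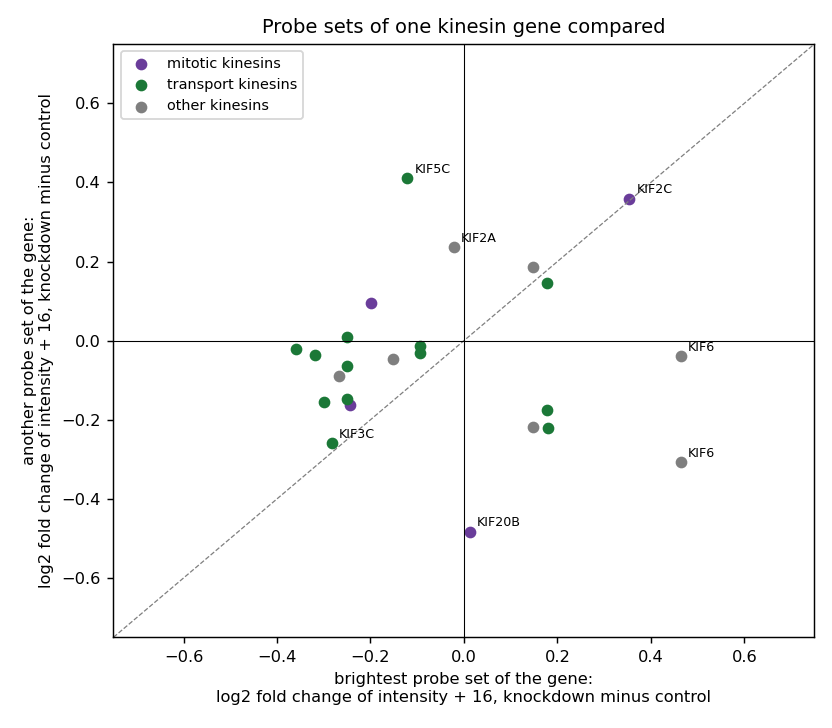
Log2 fold change of intensity + 16, knockdown minus control, at the brightest probe set of a kinesin gene (horizontal axis) and at each of its other probe sets above the filter (vertical axis); each of the 24 points is 1 other probe set, the dashed line marks equal values and labels name the farthest points. KIF2C and KIF3C lie near the line, while KIF6, KIF5C and KIF20B lie far from it.

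Genes whose products work with the kinesins were taken as further lists. Each of these genes was read at its brightest probe set only, and any other probe sets were not examined. Of 14 light chains, adaptors and mitochondrial cargo receptors, all above the filter, 11 had a fold change above 0 and the median was 0.16. None passed either fit. KLC2, a light chain of conventional kinesin, had means of 66.5 ± 7.59 in knockdown and 50.3 ± 2.91 in control (SD, n = 2 each, log2 fold change 0.31). KIFAP3, which joins KIF3A and its partner to cargo, had means of 92.6 in knockdown and 73.2 in control (0.28), opposite in direction to KIF3A, KIF3B and KIF3C. RHOT1, which links mitochondria to motors, had means of 244 in knockdown and 205 in control (0.23). For these 3 genes both knockdown arrays lay above both control arrays. That was so for 9 of the 14, with 3 below, where 22.7% of all genes were above and 24.5% below. KLC3 and KLC4 are among the 9 and had control means under the filter's intensity, at 10.9 in knockdown and 8.09 in control for KLC3 and 12.1 in knockdown and 6.55 in control for KLC4. They passed the filter through the knockdown arrays, so their sign is partly set by it and the tally is no more than a description.

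Partners of mitotic kinesins had a median of 0.08, with 20 of 28 above 0. By the intensity-trend fit 2 rose and 1 fell, where 1.59% of all genes rose and 1.4% fell, and none passed the common-prior fit. INCENP passed the filter only through its knockdown arrays, with means of 11.1 in knockdown and 6.25 in control. BIRC5, the passenger complex subunit survivin, had means of 227 in knockdown and 174 in control (0.36, limma intensity-trend adjusted p of 0.0289). CCNB1, cyclin B1, had means of 211 in knockdown and 157 in control (0.39, adjusted p of 0.0354 in the same fit). NCAPG, a condensin subunit, had means of 137 in knockdown and 182 in control (-0.37, adjusted p of 0.0461 in that fit). These partners differed between the control replicates by a median of 0.13, with replicate 1 the higher, as the mitotic kinesins did.

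Regulators of mitotic genes had a median of 0.08, with 10 of 14 above 0. CDKN1A, the cell cycle inhibitor p21, had means of 185 in knockdown and 137 in control (0.39) and rose by the intensity-trend fit (limma adjusted p of 0.0248). NFYC, a subunit of the factor that binds CCAAT, had means of 60.2 in knockdown and 46.3 in control (0.29), and FOXM1, an activator of G2/M genes, 75.9 in knockdown and 60.1 in control (0.27), neither past a fit. Dynein and dynactin genes, the motor that walks the other way, had a median of -0.03 with 12 of 21 below 0 and none past a fit. DYNLT3, a dynein light chain, had means of 8.93 in knockdown and 15.7 in control (-0.35), BICD1, a dynein adaptor, 19.6 in knockdown and 14.8 in control (0.21), and DYNLRB1 212 in knockdown and 182 in control (0.20). Tubulins had a median of 0.07 with 10 of 15 above 0 and none past a fit, and TUBB4B had means of 445 in knockdown and 374 in control (0.24). Probe sets of TUBB4B, TUBA1B, TUBA1C, TUBB, TUBB2B, TUBB3 and TUBD1 carry the _x_at suffix, so the tubulin values may not be separate readings. Those of KLC2 and FOXM1 carry the suffix too.

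Kinesins named outside the numbered series gave the same picture of small differences. CENPE, the centromere motor that brings chromosomes to the metaphase plate, had means of 50.4 in knockdown and 63.7 in control (-0.27) with overlapping arrays. KIFC1, the minus-end motor that focuses spindle poles, had means of 32.3 in knockdown and 29.8 in control (0.08). STARD9 had means of 7.72 in knockdown and 11.01 in control (-0.19). It passed the filter through its control arrays, so its sign is partly set by the filter. The median of the 4 above the filter, STARD9 among them, was -0.10, with 0 called by either fit.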

How the data were processed

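The authors deposited linear intensities of 54613 probe sets on each array, made from biotinylated cRNA by a standard Affymetrix single-cycle method per the labels' protocols. The steps from scan to intensity are not given in the sources used here. Array means lay between 53.3 and 54.6. The array annotation gave 1 gene for 41091 probe sets, several for 1801 and none for 11721, and only the first kind was used. All 37 kinesin symbols matched RefSeq (GRCh38.p14) by gene number.

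Values were turned into log2(intensity + 16) without further normalization. Each gene took the probe set of highest mean, and those under the median of all probe set means were left out. The test was limma's lmFit and eBayes (version 3.58.1 under R 4.3.3), with p-values adjusted by the Benjamini-Hochberg method over 12922 genes at 0.05. The script was tested on simulated data. Every member was to be named, with all 4 values for mitotic and transport kinesins above the filter, and the largest moderated t within each other list. The other members shown with all 4 values (KIF2A, KIF9, KIF21A and KIF26A) were chosen after their values were seen. KIF2B and KIF17, below the filter, were also shown with all 4 values outside that plan. Alternatives were other prior variances, filters, scalings, pseudocounts, probe set rules, class members, a replicate block and leaving out each array. Members, classes and lists were chosen with earlier results of these data known.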

Additional observations from a re-analysis of the deposited data

How the results depend on the processing

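No kinesin gene was called by limma under any of the 14 alternatives run, with 0 called in each, including the replicate block and every fit without 1 array. Over all genes the count was 2 in the common-prior fit, 387 with the intensity trend, 18 with the stricter filter, 406 with a pseudocount of 64, 0 with a pseudocount of 1, 1 with the mean of probe sets, and 1 to 7 without single arrays. The transport median of -0.19 moved by more than its replicate SD of 0.05 to -0.13 under median centring, -0.25 with a pseudocount of 1, -0.10 with a pseudocount of 64 and -0.080 with the mean of probe sets, and ranged from -0.21 to -0.15 without single arrays. The mitotic median ranged from -0.10 to -0.01 without single arrays and stayed within its replicate SD of 0.07 under every alternative. With the replicate number as a block both medians were the same, -0.04 and -0.19. That outcome was fixed in advance, since both groups hold the same replicate numbers, and it says nothing about a batch. The labels do not say whether replicates of the same number were handled together. Over all genes tested, their deviations from the group means were uncorrelated (r = -0.00668). Replicate 1 minus replicate 2 had a class median above 0 in both groups for the mitotic (0.08 in knockdown, 0.18 in control) and transport kinesins (0.05 and 0.03). For the other kinesins it was below 0 (-0.0067 and -0.0049). Whether same-numbered arrays shared a batch was not tested.

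Of 409 values for single kinesin genes, 387 kept their direction and 22 changed sign, in 12 of 30 genes, none called by the common-prior fit. The other prior variances, the other filters and the replicate block cannot change a gene's fold change. Their values are among the 387 by construction, so the tally overstates how stable the directions were. Under median centring KIF13B stood at 0.040 and KIF2A at 0.035. Quantile normalization gave -0.0080 for KIF1A and -0.016 for KIF20B, and a pseudocount of 64 gave -0.0029 for KIF1A. With the mean of probe sets KIF20B stood at -0.26, KIF2A at 0.11, KIF5A at -0.080 and KIF5C at 0.044. Leaving out 1 array at a time, the fold changes that changed sign ranged from -0.038 to 0.39 for KIF13A, from -0.12 to 0.087 for KIF13B, from -0.22 to 0.015 for KIF15, from -0.0055 to 0.13 for KIF18B, from -0.20 to 0.20 for KIF1A, from -0.030 to 0.28 for KIF20A, from -0.21 to 0.23 for KIF20B, from -0.17 to 0.028 for KIF21B and from -0.26 to 0.11 for KIF25. The cause of these changes was not tested. Dim probe sets near the filter limit what can be said of 7 members that did not pass it.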
